A study of Mus musculus with 12 samples.

Results

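The 9 genes described here handle pyruvate where it is traded for lactate or alanine. They are the alanine transaminases Gpt and Gpt2, the mitochondrial pyruvate carrier subunits Mpc1 and Mpc2, the lactate dehydrogenase subunits Ldha and Ldhb, the monocarboxylate transporters Slc16a1 and Slc16a3, and the pyruvate kinase Pkm. They form a group by their known roles, and no value enters the rule that lists them. The choice of the group was made with earlier results of these data known. The genes were found by symbol through GENCODE M21 among the 26921 genes of the count table. RNA was measured by sequencing in the left ventricle of 16-week-old mice. WT mice (n = 6) carried Gch1 flox/flox alleles without Cre, and cmGch1 KO mice (n = 6) carried the same floxed alleles with a single copy of α-MHC-Cre, a recombinase driven by the promoter of a cardiomyocyte myosin gene. Gch1 encodes GTP cyclohydrolase I, the enzyme that starts the synthesis of tetrahydrobiopterin, a cofactor of nitric oxide synthases. The comparison asks what deleting it in cardiomyocytes does to ventricular gene expression. No library from Cre mice with intact Gch1 was analysed here, so Cre and the loss of Gch1 cannot be told apart.

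Pyruvate stands at the branch point of glucose use in the heart. Pyruvate kinase makes it in the last step of glycolysis, lactate dehydrogenase converts it to lactate and back, and alanine transaminase exchanges its keto group for the amino group of glutamate, giving alanine and 2-oxoglutarate. To be oxidised it enters the mitochondrion through a carrier built of MPC1 and MPC2, whereas lactate crosses the cell membrane through monocarboxylate transporters. The heart is known as a net consumer of lactate, and its lactate dehydrogenase is rich in the H subunit encoded by Ldhb.

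Libraries held 19921398 to 37917806 counts. Gch1 itself fell from 10.7 ± 0.979 cpm (counts scaled to a common library total by the TMM factors) in WT to 5.51 ± 0.859 cpm in cmGch1 KO (SD, n = 6 each; log2 fold change -0.96, SE 0.11, adjusted p = 6.88e-04 by edgeR's quasi-likelihood test, Benjamini-Hochberg adjusted), with no overlap between genotypes. These gene counts also take in exons outside the floxed part and Gch1 transcripts of other cell types. cmGch1 KO replicates 2 and 3 stood apart from the other 10 libraries. They had 87.1 and 99.6 cpm of Xist and no count for the Y-linked genes examined, against at most 0.235 cpm of Xist and at least 4003 Y-linked counts elsewhere, and the labels give no sex. Mitochondrial genes took 14.9% and 16.1% of their counts, against 18.3% to 22.9% in the rest. No WT library had this pattern of Xist and Y-linked counts, so it is partly confounded with genotype. In a fit with a sex-linked covariate (Xist against the Y-linked genes), 0 of the 9 genes had an adjusted p under 0.05. The part of these features in the results was not tested further. Calls among the 9 genes and the gene lists around them are given with and without cmGch1 KO replicates 2 and 3. So are correlations between the 9 genes over all 12 libraries. The searches for similar genes used all 12 libraries only.

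Of the 9 genes, 8 exceeded 3 cpm in all 12 libraries and were tested. Slc16a3 exceeded it in 2 libraries, both cmGch1 KO, and was not tested in the main comparison. Gpt and Gpt2 fell in cmGch1 KO at an adjusted p under 0.05, by edgeR's quasi-likelihood test, Benjamini-Hochberg adjusted over all 11225 tested genes. No tested gene of the group rose by this test. Over all tested genes, 1.12% were called, 0.445% as lower and 0.677% as higher. The log2 fold change was below 0 for 7 of the 8 tested genes, against 53.3% of all tested genes, and its median was -0.21 against -0.01 over all tested genes. At an unadjusted p under 0.05, 3 were lower (Gpt, Gpt2 and Ldhb) against 4.51% of all tested genes, and 1 was higher (Slc16a1) against 7.01%. In bulk tissue, fewer cells of a type and less RNA per cell cannot be told apart.

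**Figure D1:**
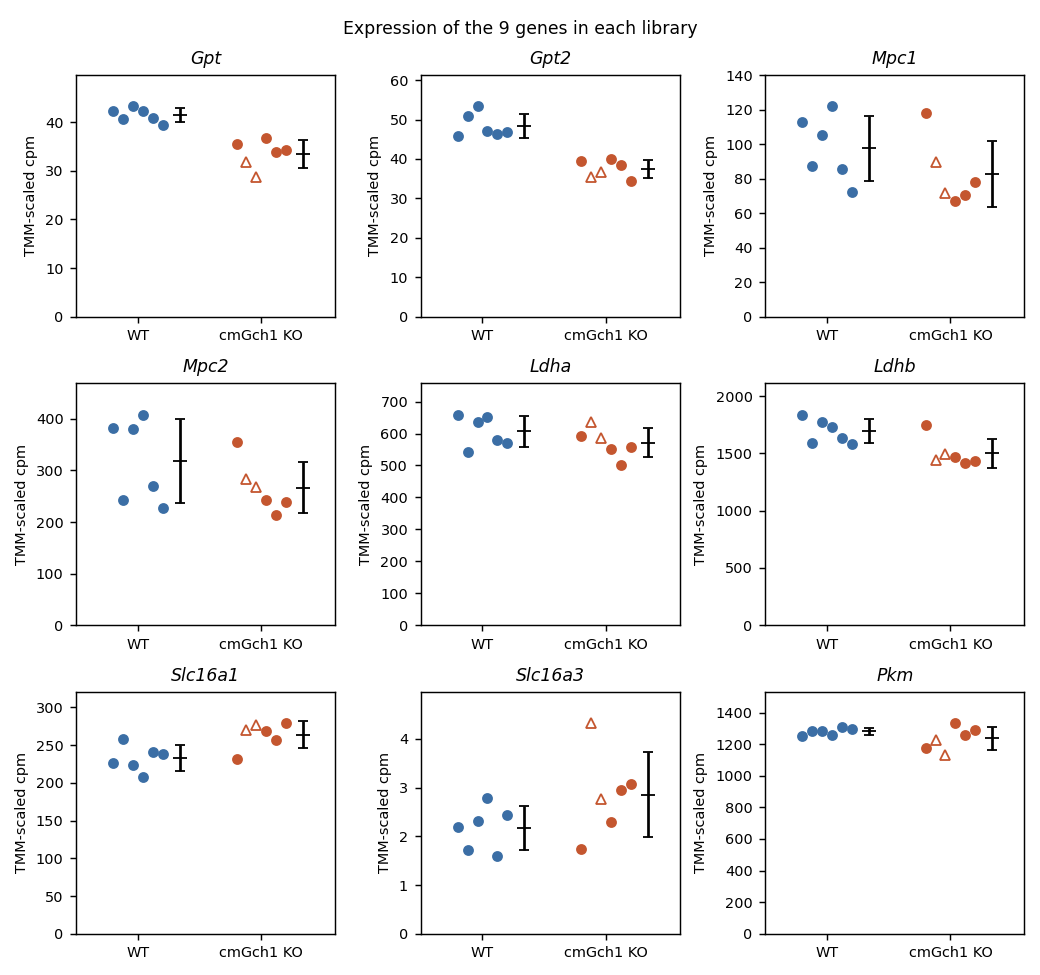
Expression of the 9 genes in TMM-scaled cpm (vertical axes, from 0) in the 6 WT and 6 cmGch1 KO libraries. Each point is a library, open triangles are cmGch1 KO replicates 2 and 3, and bars show the mean ± SD. Only for Gpt and Gpt2 do all 6 cmGch1 KO points lie below all 6 WT points, against 0.802% of all tested genes.

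Gpt encodes the cytosolic alanine transaminase and lies on chr15:76695716-76699686 (GRCm38, plus strand). Its TMM-scaled expression in WT was 42.3, 40.7, 43.3, 42.3, 40.8 and 39.5 cpm in replicates 1 to 6. In cmGch1 KO it was 35.5, 31.9, 28.7, 36.7, 33.9 and 34.3 cpm. All 6 cmGch1 KO libraries were below all 6 WT libraries, as for 0.802% of all tested genes, and replicates 2 and 3 were the lowest. The mean went from 41.5 ± 1.38 to 33.5 ± 2.86 cpm (SD, n = 6 each), or 80.7% of WT. The log2 fold change was -0.31 (SE 0.07, 95% interval -0.45 to -0.16) with an adjusted p of 0.0417 by edgeR's quasi-likelihood test, Benjamini-Hochberg adjusted, and the exact two-sided permutation test gave p = 0.00216, the smallest it can give. Without cmGch1 KO replicates 2 and 3, the mean was 84.6% of WT and the genotypes still did not overlap (exact permutation p = 0.00476). The adjusted p was then 0.223 with a log2 fold change of -0.24. The call at an adjusted p under 0.05 held in 2 of the 12 fits that left out 1 library, those without cmGch1 KO replicate 1 or 4, and the adjusted p in the 12 fits ran from 0.0312 to 0.123.

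Gpt2 encodes the mitochondrial alanine transaminase and lies on chr8:85492576-85527560 (plus strand). WT replicates 1 to 6 had 45.8, 50.8, 53.4, 47.2, 46.3 and 46.8 cpm. The cmGch1 KO replicates had 39.6, 35.4, 36.8, 40.1, 38.4 and 34.4 cpm. No cmGch1 KO library reached the lowest WT library, as for 0.802% of all tested genes. Here replicates 2 and 3 lay within the range of the other cmGch1 KO libraries. The mean went from 48.4 ± 3.01 to 37.4 ± 2.32 cpm (SD, n = 6 each), or 77.4% of WT. The log2 fold change was -0.37 (SE 0.06, 95% interval -0.51 to -0.23) with an adjusted p of 0.0114 by edgeR's quasi-likelihood test, Benjamini-Hochberg adjusted (exact permutation p = 0.00216). Leaving out any 1 library kept the call, with adjusted p-values of 0.00935 to 0.0412. Without cmGch1 KO replicates 2 and 3 together, Gpt2 was at 78.8% of WT with no overlap (exact permutation p = 0.00476), a log2 fold change of -0.35 and an adjusted p of 0.0995. In that smaller comparison 18 genes in all were called lower and 16 higher.

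No difference between the falls of the transaminases was detected. The log2 ratio of Gpt2 to Gpt counts was 0.22 ± 0.08 in WT and 0.16 ± 0.11 in cmGch1 KO (SD, n = 6 each), a difference of -0.06 with an exact permutation p of 0.351, or 0.569 adjusted over the 4 ratios tested. Their values formed separate clusters by genotype, so no correlation over all 12 libraries is given. Within genotypes, Pearson's r between Gpt2 and Gpt was 0.40 in WT and 0.49 in cmGch1 KO (n = 6 each, exact permutation p = 0.435 and 0.329).

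**Figure D2:**
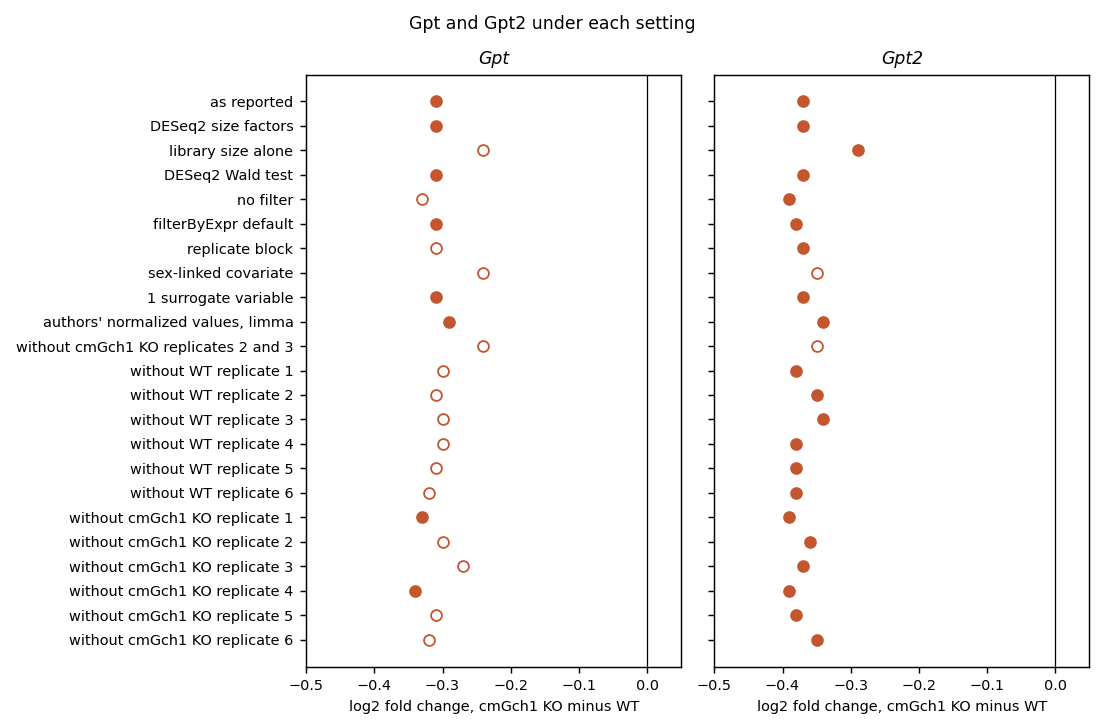
Log2 fold change of Gpt and Gpt2 (horizontal axes, cmGch1 KO minus WT) as reported and under each alternative setting (rows); filled points have an adjusted p under 0.05 and open points do not. All values lie between -0.39 and -0.24, and the open points are more frequent for Gpt than for Gpt2.

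The promoter of Gpt2 is shown because Gpt2 carried the larger fall, and those of Ldha and Slc16a1 because the former is a textbook target of hypoxia-inducible factor and both are textbook targets of Myc. Each runs from 250 bases before to 50 bases after the start site, 5′ to 3′ (RefSeq, GRCm38.p6, all plus strand). Capitals mark matches, on either strand, to any of 6 motifs: the E-box CACGTG, the hypoxia response core ACGTG, the oestrogen-related receptor site TCAAGGTCA, the nuclear receptor site AGGTCA, the ATF4 core TGATGNAA and the cyclic AMP response element TGACGTCA.
Gpt2, chr8:85492326-85492625: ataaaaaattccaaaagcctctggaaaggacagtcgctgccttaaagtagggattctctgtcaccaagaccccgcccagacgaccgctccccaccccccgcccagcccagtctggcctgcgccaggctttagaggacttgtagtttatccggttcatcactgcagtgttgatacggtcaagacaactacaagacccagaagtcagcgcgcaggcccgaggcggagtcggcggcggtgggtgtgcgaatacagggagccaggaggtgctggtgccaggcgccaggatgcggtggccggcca
Slc16a1, chr3:104638414-104638713: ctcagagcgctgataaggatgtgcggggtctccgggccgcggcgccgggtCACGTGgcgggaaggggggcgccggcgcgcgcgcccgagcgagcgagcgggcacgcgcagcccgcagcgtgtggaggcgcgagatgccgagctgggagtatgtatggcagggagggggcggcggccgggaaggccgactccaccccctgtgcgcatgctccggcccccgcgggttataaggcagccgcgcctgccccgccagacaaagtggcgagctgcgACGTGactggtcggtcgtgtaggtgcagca
Ldha, chr7:46845554-46845853: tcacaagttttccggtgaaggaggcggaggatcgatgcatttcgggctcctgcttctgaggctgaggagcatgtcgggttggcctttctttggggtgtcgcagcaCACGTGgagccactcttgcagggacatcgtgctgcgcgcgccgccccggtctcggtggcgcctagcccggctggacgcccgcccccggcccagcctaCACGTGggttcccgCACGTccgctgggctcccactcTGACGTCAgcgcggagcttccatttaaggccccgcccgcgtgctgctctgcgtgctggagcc

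No letters of the Gpt2 window matched any of the 6 motifs, which says only that these letters are not in it. The Slc16a1 window held 1 E-box and 3 matches to the hypoxia response core, 2 of which lie within the E-box, since its letters hold the core on each strand. The Ldha window shown held 2 E-boxes, 5 matches to the hypoxia response core (4 within the E-boxes) and 1 cyclic AMP response element. Another Ldha window, chr7:46846832-46847131, is not shown and held no match to any of the 6 motifs. Of all 32851 promoter windows of this length, 7.15% held the E-box, 19.6% the hypoxia response core, 0.423% the oestrogen-related receptor site, 16.3% the nuclear receptor site, 3.97% the ATF4 core and 1.79% the cyclic AMP response element. Sequences were found for 8 of the 9 genes, in 11 windows, and Gpt had none.

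Mpc1 (chr17:8282904-8297661, plus strand) and Mpc2 (chr1:165460637-165481214, plus strand) encode the subunits that together form the carrier of pyruvate into mitochondria. Mpc1 in WT replicates 1 to 6 was at 113, 87.5, 105, 122, 85.4 and 72.3 cpm, and the cmGch1 KO replicates had 118, 89.7, 71.5, 67.2, 70.4 and 77.8 cpm. Mpc2 was at 383, 242, 380.2, 408, 269.6 and 227 cpm in the WT libraries, and the cmGch1 KO libraries had 355, 283, 268, 242, 214 and 238 cpm. Both genes were high in the same 4 libraries, WT replicates 1, 3 and 4 and cmGch1 KO replicate 1, and the genotypes overlapped widely. Mpc1 had a log2 fold change of -0.24 (SE 0.15, 95% interval -0.57 to 0.08, adjusted p = 0.61) and Mpc2 of -0.26 (SE 0.16, 95% interval -0.60 to 0.09, adjusted p = 0.622), both by edgeR's quasi-likelihood test, Benjamini-Hochberg adjusted. The intervals take in no change as well as a fall as large as that of Gpt2. Exact permutation tests gave p = 0.186 for Mpc1 and 0.203 for Mpc2.

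The counts of Mpc1 are uncertain because a near-identical copy, Mpc1-ps (ENSMUSG00000091498), a pseudogene on chr12:110858565-110858894 (minus strand), is counted as a gene of its own. Over 330 aligned bases it differs from an Mpc1 transcript by G41A alone (position counted from 1 at the first base of Mpc1-ps), an identity of 99.7%. The stretch around that base is shown with the differing base in capitals. Read pairs that lie wholly within the 330 aligned bases and miss that base cannot tell the copies apart.
Mpc1, in a transcript of chr17:8282904-8297661: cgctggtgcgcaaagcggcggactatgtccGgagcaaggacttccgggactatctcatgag
Mpc1-ps, chr12:110858824-110858884, minus strand: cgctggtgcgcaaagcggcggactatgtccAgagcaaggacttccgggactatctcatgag

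Over the 12 libraries, Mpc1 held 31354 counts and Mpc1-ps 61422. Expression of Mpc1-ps was 191 ± 40.5 in WT and 163 ± 45.1 cpm in cmGch1 KO (SD, n = 6 each). It was high in the same 4 libraries as Mpc1 and Mpc2. Summed, Mpc1 and Mpc1-ps were at 288 ± 58.7 in WT and 245 ± 63.8 cpm in cmGch1 KO, a log2 fold change of -0.23 (SE 0.16, 95% interval -0.58 to 0.11), close to that of Mpc1 alone, with an adjusted p of 0.674 by edgeR's quasi-likelihood test, Benjamini-Hochberg adjusted.

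No difference in the balance of the carrier subunits was detected. The log2 ratio of Mpc1 to Mpc2 counts was -1.69 ± 0.13 in WT and -1.70 ± 0.14 in cmGch1 KO (difference -0.01, exact permutation p = 0.857, also adjusted over the 4 ratios). With Mpc1-ps added to Mpc1, it was -0.13 ± 0.11 in WT and -0.14 ± 0.15 in cmGch1 KO (difference -0.01, exact permutation p = 0.922). Because the libraries fell into 4 with high and 8 with low Mpc2, no correlation over all 12 is given. Among the 8 low libraries Pearson's r between Mpc1 and Mpc2 was 0.57 (permutation p = 0.144) and Spearman's rho was 0.62 (permutation p = 0.115). The median share of counts from mitochondrial genes was 21.2% in the 4 high libraries and 21.4% in the 8 low ones, and its part in this split was not tested.

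**Figure D3:**
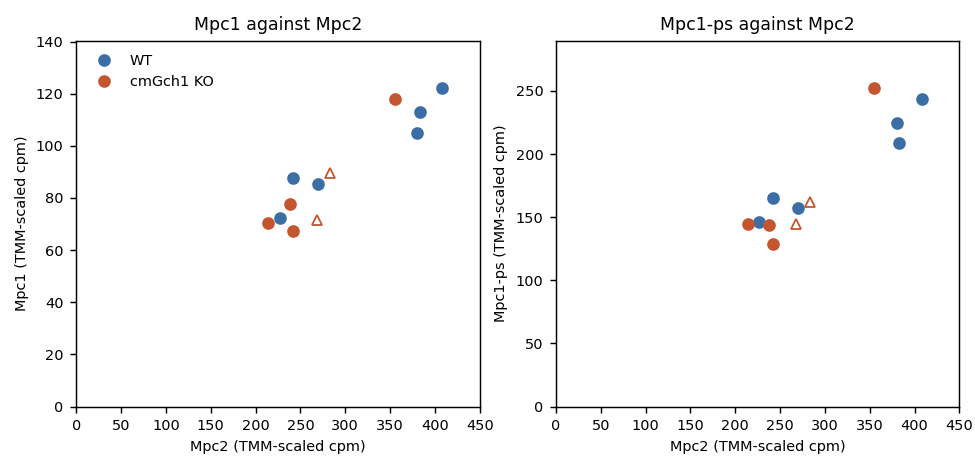
Mpc1 (left) and its copy Mpc1-ps (right) against Mpc2, all in TMM-scaled cpm on axes from 0. Each point is a library, blue for WT and orange for cmGch1 KO, and open triangles are cmGch1 KO replicates 2 and 3; 4 libraries (3 WT and 1 cmGch1 KO) have Mpc2 of 355 to 408 cpm and the other 8 have 214 to 283 cpm.

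Ldhb (chr6:142490249-142507957, minus strand) encodes the H subunit of lactate dehydrogenase and was the most highly expressed of the 9 genes. It was at 1838, 1591, 1773, 1731, 1638 and 1585 cpm in WT replicates 1 to 6. In cmGch1 KO it was at 1746, 1444, 1497, 1467, 1416 and 1431 cpm. Of the cmGch1 KO libraries 5 lay below every WT library, and the exception was replicate 1. The log2 fold change was -0.17 (SE 0.07, 95% interval -0.32 to -0.02), with an unadjusted p of 0.0264 and an adjusted p of 0.328 by edgeR's quasi-likelihood test, Benjamini-Hochberg adjusted, so the difference did not pass the threshold. The exact permutation test on Ldhb alone gave p = 0.0238, and 0.0714 without cmGch1 KO replicates 2 and 3.

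Ldha (chr7:46841475-46855627, plus strand) encodes the M subunit, which predominates in glycolytic tissue. WT libraries ranged from 543 to 659 cpm (median 607) and cmGch1 KO libraries from 501 to 636 cpm (median 573). The ranges overlapped over most of their length. Its log2 fold change was -0.09 (SE 0.07, 95% interval -0.25 to 0.07, adjusted p = 0.749 by edgeR's quasi-likelihood test, Benjamini-Hochberg adjusted). Pseudogene copies drew few counts: 7 of the 23 Ldha copies were in the count table and together held 0.223% as many counts as Ldha, and the single Ldhb copy held 0.102% as many as Ldhb.

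The log2 ratio of Ldha to Ldhb counts was -1.48 ± 0.05 in WT and -1.39 ± 0.13 in cmGch1 KO (SD, n = 6 each; difference 0.09, exact permutation p = 0.158, adjusted 0.569). The highest ratio, -1.18, was in cmGch1 KO replicate 2, and without replicates 2 and 3 the difference was 0.03 (exact permutation p = 0.557). Over the 12 libraries Ldha and Ldhb had a Pearson's r of 0.66 (permutation p = 0.0215, adjusted over 4 pairs 0.0287) and a Spearman's rho of 0.65 (permutation p = 0.026, adjusted 0.0346). Without WT replicate 1 and cmGch1 KO replicate 5, the libraries farthest from the median of Ldha, r was 0.44 (permutation p = 0.197). Leaving out the extremes of Ldha narrows its range, which can by itself lower r, so whether the relation rests on that pair cannot be told. Without cmGch1 KO replicates 2 and 3 the relation was closer, with an r of 0.88 (permutation p = 0.00117, n = 10). Within genotypes r was 0.93 in WT (exact permutation p = 0.0278) and 0.34 in cmGch1 KO (exact permutation p = 0.421), a difference that was not tested.

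Pkm (chr9:59656368-59679375, plus strand) encodes a pyruvate kinase whose M1 and M2 splice forms are not separated in gene counts. It ranged from 1251 to 1306 cpm in WT (median 1284) and from 1134 to 1333 cpm in cmGch1 KO (median 1243). The WT values lay inside the wider range of the cmGch1 KO values. Its log2 fold change was -0.05 (SE 0.06, 95% interval -0.17 to 0.07, adjusted p = 0.837 by edgeR's quasi-likelihood test, Benjamini-Hochberg adjusted), and its sign turned, to 0.02, when libraries were scaled by their totals alone. That interval leaves out a fall as large as those of Gpt or Gpt2.

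Slc16a1 (chr3:104638668-104658462, plus strand) encodes MCT1, a carrier of lactate and pyruvate found widely, the heart included. Its WT values were 226, 258, 224, 208, 241 and 238 cpm in replicates 1 to 6. The cmGch1 KO values were 231, 270.2, 277, 269, 257 and 279 cpm. Of these, 4 lay above every WT library. The means were 233 ± 17.2 and 264 ± 17.9 cpm (SD, n = 6 each). Its log2 fold change was 0.18 (SE 0.07, 95% interval 0.04 to 0.33), with an unadjusted p of 0.0185 and an adjusted p of 0.282 by edgeR's quasi-likelihood test, Benjamini-Hochberg adjusted, short of the threshold. The exact permutation test gave p = 0.0152, and 0.0667 without cmGch1 KO replicates 2 and 3. Slc16a1 also moved with the split in Mpc2: it was at 208 to 231 cpm in the 4 libraries with high Mpc2, 3 of them WT, and at 238 to 279 cpm in the other 8, and the part of this split in the genotype difference was not tested.

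Slc16a3 (chr11:120948480-120960868, plus strand) encodes MCT4, the lactate exporter of glycolytic cells, and was barely expressed. Its counts were 70, 59, 62, 100, 50 and 53 in WT replicates 1 to 6 and 42, 93, 64, 76, 75 and 111 in the cmGch1 KO replicates. These gave 1.59 to 2.79 cpm in WT (median 2.24) and 1.73 to 4.32 cpm in cmGch1 KO (median 2.85), with overlap. In a fit without the filter on low counts the log2 fold change was 0.38 (SE 0.21, 95% interval -0.06 to 0.81, adjusted p = 0.592 by edgeR's quasi-likelihood test, Benjamini-Hochberg adjusted). The log2 ratio of Slc16a1 to Slc16a3 was 6.77 ± 0.40 in WT and 6.58 ± 0.38 in cmGch1 KO (difference -0.19, exact permutation p = 0.426, adjusted 0.569), and over the 12 libraries these transporters had a Pearson's r of 0.35 (permutation p = 0.26) and a Spearman's rho of 0.35 (permutation p = 0.266). Without cmGch1 KO replicates 2 and 3, r was 0.13 (permutation p = 0.723), and without the libraries farthest from the median of Slc16a1, WT replicate 4 and cmGch1 KO replicate 6, it was 0.49 (permutation p = 0.147). Within genotypes the sign differed, with an r of -0.81 in WT (exact permutation p = 0.0528) and 0.68 in cmGch1 KO (exact permutation p = 0.176), and this difference was not tested.

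**Figure D4:**
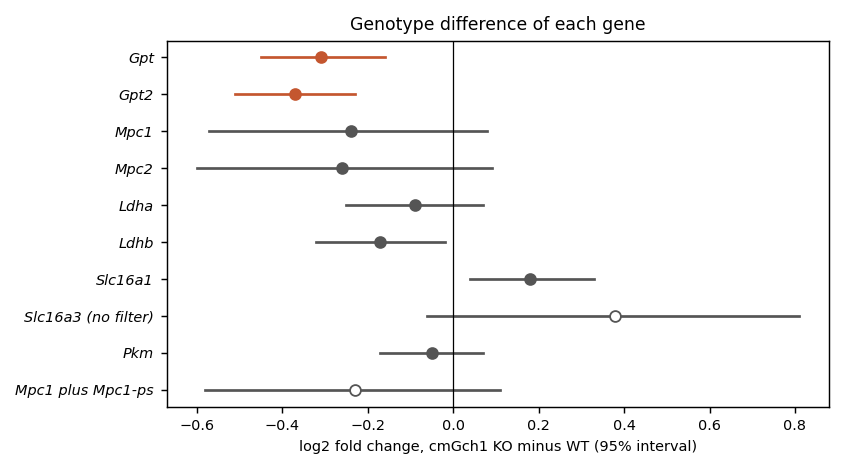
Log2 fold change (cmGch1 KO minus WT) of each gene with its 95% interval; orange marks an adjusted p under 0.05, and hollow points are the added fits for Slc16a3 (no filter on low counts) and for Mpc1 summed with Mpc1-ps. The intervals of Gpt and Gpt2 lie wholly below -0.15, whereas those of Mpc1, Mpc2, Ldha and Pkm include 0.

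Levels were compared between genes per kilobase of merged exons. In WT, Ldhb was highest at 1078 ± 66.1 cpm per kb, followed by Pkm at 256 ± 4.24 and Ldha at 183 ± 14.7. Slc16a1 at 52.6 ± 3.88, Mpc1 at 46.8 ± 9.02 and Mpc2 at 43.3 ± 11 cpm per kb came next, with overlapping ranges. Gpt at 14.1 ± 0.47, Gpt2 at 8.57 ± 0.534 and Slc16a3 at 0.408 ± 0.0848 cpm per kb closed the order (SD, n = 6 throughout). The ranges of other neighbours did not overlap. The order of the middle group depends on the length used: per kilobase of the principal transcript, an alternative chosen after seeing the data, Mpc2 was at 311, Mpc1 at 104 and Slc16a1 at 52.6 cpm per kb. The place of Mpc1 is also uncertain, because these values leave out the counts of Mpc1-ps. Before division by length, Mpc1 alone was at 97.5 ± 18.8 cpm in WT, and summed with Mpc1-ps at 288 ± 58.7 cpm.

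By similarity over the 12 libraries, after taking out the mean of each genotype, the tested genes closest to Gpt were Lacc1 (Pearson's r 0.956), Tbc1d22a (0.921), Cpxm2 (0.907), Iigp1 (0.906) and Inpp5k (0.897). For Gpt2 they were Ermard (0.794), Nfrkb (0.768), Shld2 (0.753), Ybey (0.746) and Tmem220 (0.732). Each is among the highest of 11225 values and is given as a description.

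Genes around the 9 were read from 6 lists, also chosen with earlier results of these data known. Of 11 relatives and partners, such as other lactate dehydrogenases, other monocarboxylate transporters and the MCT1 chaperone basigin, 4 were tested and none passed the threshold in either direction (median log2 fold change -0.18). The D-lactate dehydrogenase Ldhd came closest, at 67.5 ± 5.22 in WT and 55.4 ± 3.92 cpm in cmGch1 KO (log2 fold change -0.29, SE 0.07, adjusted p = 0.0728 by edgeR's quasi-likelihood test, Benjamini-Hochberg adjusted). The transporter Slc16a8 had a log2 fold change of -0.28 (SE 0.14). The list of pyruvate use in mitochondria holds the pyruvate dehydrogenase complex, its kinases and phosphatases, pyruvate carboxylase and the malic enzymes. Of its 17 genes 16 were tested and 13 had a log2 fold change below 0, against 53.3% of all tested genes. No gene of this list passed (median -0.11). Its lowest were the phosphatase genes Pdp2 (-0.36, SE 0.14) and Pdpr (-0.30, SE 0.10), and its highest the malic enzyme Me2 (0.33, SE 0.10) and the kinase Pdk4 (0.22, SE 0.35). The kinase genes Pdk1 (-0.22, SE 0.06) and Pdk2 (-0.24, SE 0.06), named after their values were seen, had every cmGch1 KO library below every WT library, as did 0.802% of all tested genes, but their adjusted p-values were 0.118 and 0.115 in edgeR's quasi-likelihood test.

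All 9 genes of lower glycolysis were tested and none passed (median 0.08). Pgam1, a phosphoglycerate mutase, had a log2 fold change of 0.34 (SE 0.11, adjusted p = 0.191 by edgeR's quasi-likelihood test, Benjamini-Hochberg adjusted) and its muscle form Pgam2 of -0.13 (SE 0.10). Eno1, an enolase named after its values were seen, was nearest to the threshold (0.24, SE 0.06, adjusted p = 0.0892 in the same test). Every cmGch1 KO library was above every WT library for Eno1, as for 1.07% of all tested genes. Aldoa, an aldolase, was at -0.05 (SE 0.06), with a sign that turned under scaling by library totals. Gapdh, a gene with many near-identical copies, varied too widely to read (48.9 ± 53.5 in WT and 77.1 ± 52.1 cpm in cmGch1 KO, log2 fold change 0.66, SE 0.75).

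Of the glutamate partners of the transaminases and the malate-aspartate shuttle, 11 of 12 genes were tested. A log2 fold change below 0 was found in 8, against 53.3% of all tested genes. Slc25a13 alone passed, against 0.445% of all tested genes called lower. Slc25a13, a mitochondrial aspartate-glutamate carrier, fell from 142 ± 5.22 to 118 ± 6.97 cpm (log2 fold change -0.28, SE 0.06, adjusted p = 0.0281 by edgeR's quasi-likelihood test, Benjamini-Hochberg adjusted), and its adjusted p was 0.188 without cmGch1 KO replicates 2 and 3. The call held in 5 of the 12 fits that left out 1 library, and without the filter on low counts the adjusted p was 0.0799. Glutamate dehydrogenase, Glud1, did not overlap between genotypes at 172 ± 11.8 and 147 ± 8.2 cpm (log2 fold change -0.23, SE 0.06), but its adjusted p was 0.123. Slc25a11, the 2-oxoglutarate carrier, was at -0.15 (SE 0.08) and Slc25a22, a glutamate carrier, at 0.14 (SE 0.21).

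Carriers of neutral amino acids held rises. Of 12 genes 9 were tested and 7 had a log2 fold change above 0 (median 0.12), where 53.3% of all tested genes were below 0. The threshold was passed by 2, both higher, against 0.677% of all tested genes called higher. Slc38a1, a sodium-coupled carrier of alanine and glutamine, rose from 13.1 ± 1.88 to 25 ± 6.35 cpm (log2 fold change 0.94, SE 0.16, adjusted p = 0.0105 by edgeR's quasi-likelihood test, Benjamini-Hochberg adjusted). Slc7a5, the large neutral amino acid transporter LAT1, rose from 5.73 ± 0.67 to 9.83 ± 2.02 cpm with no overlap (log2 fold change 0.78, SE 0.14, adjusted p = 0.0117 by the same test). Both calls held whichever single library was left out, and without cmGch1 KO replicates 2 and 3 their adjusted p-values were 0.0773 and 0.0857. The partner chain of LAT1, Slc3a2, was at 0.13 (SE 0.07), and Slc38a4 at 0.45 (SE 0.11, adjusted p = 0.0657 by edgeR's quasi-likelihood test) with no overlap, against 1.07% of all tested genes with every cmGch1 KO library above every WT library. Slc38a3 was at -0.11 (SE 0.10) and Slc1a5 at -0.06 (SE 0.11), the latter with a sign that turned under scaling by library totals.

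All 12 regulators were tested, and Myc was the single one to pass, against 0.677% of all tested genes called higher. It exceeded 3 cpm in all 6 cmGch1 KO libraries but in 2 of the WT libraries, so it entered the test through the genotype in which it was higher, and in a fit without the filter its adjusted p was 0.04. Every cmGch1 KO library was above every WT library for Myc, as for 1.07% of all tested genes. Myc rose from 2.63 ± 0.609 to 4.92 ± 1.37 cpm (log2 fold change 0.90, SE 0.19, adjusted p = 0.0399 by edgeR's quasi-likelihood test, Benjamini-Hochberg adjusted). That call held in 4 of the 12 fits that left out a single library, and without cmGch1 KO replicates 2 and 3 the adjusted p was 0.0613. Hif1a, the oxygen-regulated factor, was at 0.26 (SE 0.10, adjusted p = 0.274 by the same test) and Ptbp1, a splicing factor of Pkm, at 0.16 (SE 0.09). The coactivator Ppargc1a and the lipid receptor Ppara were each at -0.26 (SE 0.16 and 0.18).

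At an unadjusted p under 0.05, against 4.51% of all tested genes lower and 7.01% higher, the lists were counted in each direction. Of the tested genes, 1 of 4 relatives and partners, 6 of 16 genes of pyruvate use and 3 of 11 genes of the glutamate list were lower, and 1 gene of pyruvate use was higher. In lower glycolysis 3 of 9 genes were higher, as were 3 of 9 neutral amino acid carriers and 2 of 12 regulators, and 0 genes of these lists were lower.

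**Figure D5:**
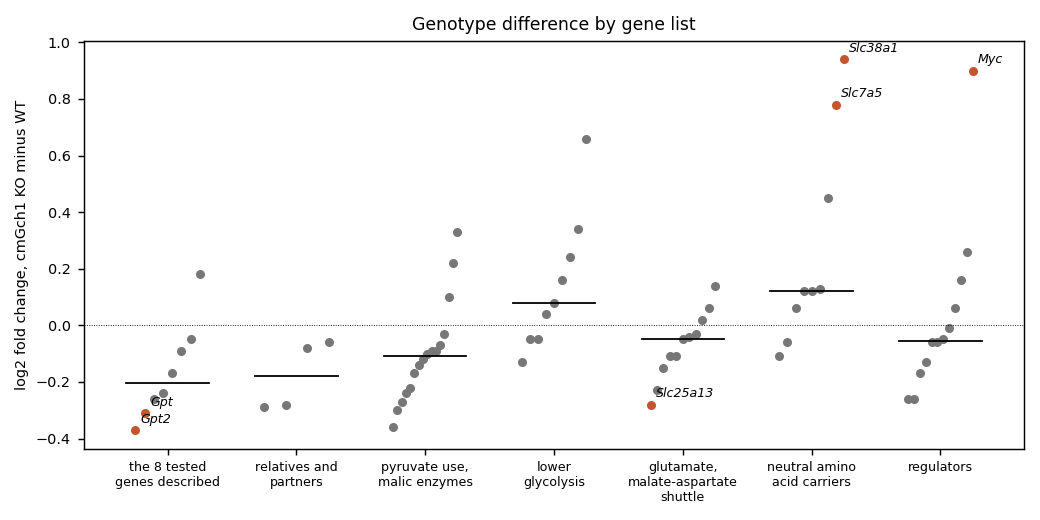
Log2 fold change (vertical axis, cmGch1 KO minus WT) of the 8 tested genes and of the tested genes of 6 lists around them. Each point is a gene, a black line is the median of its group, and the named orange points (Gpt, Gpt2, Slc25a13, Slc38a1, Slc7a5 and Myc) have an adjusted p under 0.05.

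Markers of the cell types of the ventricle were read beside these genes. Over all tested genes, 53.3% had a log2 fold change below 0 and 1.12% were called. All 8 cardiomyocyte markers had a log2 fold change below 0, none past the threshold, and their summed level was 49183 to 54216 in WT and 43606 to 50041 cpm in cmGch1 KO, lowest in replicates 2 and 3 (43606 to 44895 cpm). All 5 macrophage markers were above 0, none past the threshold, and their sum did not overlap between genotypes, at 102 to 118 in WT and 119 to 143 cpm in cmGch1 KO. Sums for fibroblast markers (589.7 to 797 cpm in WT, 649.6 to 798 cpm in cmGch1 KO) and endothelial markers (928 to 1114 cpm and 918 to 1043 cpm) overlapped. Of the smooth muscle and pericyte markers 1 of 5 passed, Acta2, which rose from 126 ± 14.3 to 199.7 ± 32 cpm (log2 fold change 0.66, SE 0.11, adjusted p = 0.00672 in edgeR's quasi-likelihood test), while the summed level overlapped at 838 to 957 cpm and 878 to 1014 cpm. All 5 erythroid markers were below 0, none past the threshold, with sums of 393 to 1153 cpm (median 758) in WT and 431 to 926 cpm (median 549) in cmGch1 KO. Atrial cardiomyocyte markers varied widely between libraries, with sums of 7.66 to 285 cpm (median 95.5) in WT and 45.3 to 188 cpm (median 95.8) in cmGch1 KO. Skeletal muscle markers summed to at most 2.84 cpm, adipocyte markers to at most 8.63 cpm and neutrophil markers to at most 2.08 cpm. The part of cell composition in the differences of Gpt, Gpt2 and the other genes was not tested.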

How the data were processed

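Left ventricular RNA from 12 mice was sequenced as paired-end, dUTP-stranded libraries. According to the methods and the submitters' processing notes, the authors aligned reads with HISAT2 and SAMtools to GRCm38 and counted them per gene with featureCounts. The methods also name Picard without saying which step used it. The deposited counts are whole-number read counts per Ensembl gene. A deposited table of normalized log2 values, made by the authors with a tool not given in the sources used here, served as an alternative. The strand setting and annotation of the counting are not given in the sources used here. Of 26921 gene IDs, 26582 (98.7%) were found in GENCODE M21.

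Counts were tested with edgeR 4.0.16 in R 4.3.3: TMM scaling, genes above 3 cpm in at least 6 libraries (11225 genes), a quasi-likelihood fit on genotype, and Benjamini-Hochberg adjustment at an FDR of 0.05. P-values measure the spread between animals. Single genes and log2 ratios were also tested by exact two-sided permutation, and correlations by permutation. Alternatives used limma 3.58.1, DESeq2 1.42.0 and sva 3.50.0, and near-identical copies were sought with BLASTN 2.17.0 (at least 90% identity over 100 bases). The 95% intervals of fold changes come from the edgeR fit and include the spread between animals, whereas the limit of a count of 0 (3 counts, at most 0.151 cpm) covers counting error only.

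The 9 genes and the gene lists were chosen with earlier results of these data known. From each list the text names genes with an adjusted p under 0.05 and the 2 largest rises and falls, of which 1 is not reported here. For each called gene of the 9, it names the 5 tested genes with the highest r after centring by genotype.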

Additional observations from a re-analysis of the deposited data

Results flagged for a closer look

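In groups of 6 libraries, a library was taken as standing far from the others when its gap to the nearest, divided by the range of the group, exceeded 0.625. Of 80 groups of values (40 genes and ratios in each genotype), 3 met this, and chance alone gives about 1 in 20 groups. All 3 were the same library, cmGch1 KO replicate 1. Ldhb was at 1746 cpm there, against 1416 to 1497 cpm in the other 5 cmGch1 KO libraries. Pgam2, the muscle phosphoglycerate mutase, was at 593 cpm, against 419 to 462 cpm. Slc25a11, the 2-oxoglutarate carrier, was at 529 cpm, against 411 to 435 cpm. The same library was among the 4 with high Mpc1 and Mpc2.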

How the results depend on the processing

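The number of the 9 genes called lower, 2 as reported, was 1 with scaling by library size alone, 1 with no filter, 1 with a replicate block, 0 with a sex-linked covariate, 0 without cmGch1 KO replicates 2 and 3, 5 with 1 surrogate variable and 1 to 2 when 1 library was left out; the number called higher, 0 as reported, was 1 with the surrogate variable. For Gpt the adjusted p was 0.0816, 0.0771, 0.056, 0.161 and 0.223 under the first 5 of these settings. For Gpt2 it was 0.0573 with the sex-linked covariate and 0.0995 without replicates 2 and 3. The surrogate variable added Mpc1 (adjusted p = 0.049), Mpc2 (0.0355), Ldhb (0.0264) and, as higher, Slc16a1 (0.039). Over all tested genes, 50 were called lower and 76 higher (39.7% lower). Library size alone gave 36 and 116 (23.7% lower) and moved the median of all genes to 0.07, the DESeq2 Wald test gave 155 and 218, the replicate block 76 and 112, the sex-linked covariate 24 and 40, the surrogate variable 331 and 305 (52% lower), and leaving out cmGch1 KO replicates 2 and 3 gave 18 and 16. With 1 library left out they ran from 28 to 96 lower and from 44 to 111 higher, both most without cmGch1 KO replicate 1. Pkm reversed to 0.02 with library size alone. The Slc16a1 to Slc16a3 ratio difference, -0.19 as reported, was 0.00 in the authors' normalized values. The Mpc1 to Mpc2 ratio difference, -0.01 as reported, was 0.02 without cmGch1 KO replicates 2 and 3. With 1 library left out it was at most 0.03 (lowest -0.05). The correlation of Ldha and Ldhb was 0.60 (adjusted p = 0.0532 by permutation) with library size alone. Whether replicate numbers pair the libraries is unclear. Correlations of same-numbered libraries were 0.676, -0.095, -0.078, -0.128, 0.401 and 0.509, and 3 of 6 WT libraries matched their own number best. The replicate block is therefore given as a setting only. The causes of these shifts were not tested. Depth limits Slc16a3, with 42 to 111 counts per library.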

Other observations

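Mpc2 was, by a search added after its values were seen, most similar over the 12 libraries to Gm9493 (Pearson's r 0.994 after taking out the mean of each genotype), the prohibitin gene Phb2 (0.99), the ribosomal protein gene Rpl6 (0.99), the mitochondrial import factor Grpel1 (0.989) and the complex I subunit Ndufc2 (0.988). In the same search Mpc1 was closest to the mitochondrial ribosomal protein gene Mrps25 (0.985). Ldhb was closest to the retinoid receptor Rxrg (0.985) and shared its upper values with the 4 libraries of high Mpc2, at 1731 to 1838 cpm against 1416 to 1638 cpm in the other 8. These are descriptions of libraries that share depth and composition, each the highest of many values.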
